A study of Cicer arietinum with 24 samples.

Results

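Late maturation was set against embryogenesis in developing seeds of chickpea (Cicer arietinum), and the genes whose transcript level separated the 2 phases were followed through the stages between them. The late phase comprised the seed stages S6 and S7 and the early phase the stages S1, S2 and S3, together 15 of the 24 samples of the series (6 late and 9 early). Genes were compared when they reached at least 1 FPKM (fragments scaled by exon length and by the number mapped, so that levels are per gene length) in any of these 5 stages, which held for 18305 of the 27966 entries that carried a gene identifier (65.5%). The other 9661 entries stayed under 1 FPKM at all 5 stages. Each entry is counted as a gene below. Of the entries compared, 1620 joined several identifiers and 2552 held an identifier that occurs on several entries.

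The RNA came from whole seeds of the large-seeded cultivar JGK 3, collected from field-grown plants, and leaf of the same cultivar was sequenced as a vegetative tissue. The study calls S7 late-maturation, S5 mid-maturation and S1, S2 and S3 early-, mid- and late-embryogenesis. S6 is labelled only as a seed stage by its number and is placed with S7 here, and S4 and S5 were kept apart from both phases. Each stage had 3 samples that were represented by 1 pooled FPKM value per gene, so that no spread between replicates, no p-value and no read depth was available, and every difference below describes the pooled libraries only. A whole seed holds embryo, seed coat and, at early stages, endosperm. Fewer cells of a type and less RNA per cell cannot be told apart in such samples.

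During embryogenesis a legume seed builds its embryo by cell division and pattern formation. During maturation division ceases, storage proteins, starch and oil are deposited in the cotyledons, and the embryo acquires tolerance to desiccation, for which late embryogenesis abundant proteins and other protective proteins are known. Late in maturation water is lost and metabolism slows. No gene names came with the identifiers, so defining markers of seed tissues could not be looked up and most genes are given by identifier.

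The stages within each phase were alike and the phases stood apart. Across the 18305 genes, Pearson's r of log2(FPKM + 1) was 0.978 between S6 and S7 and between 0.918 and 0.940 among S1, S2 and S3. Between the phases it was between 0.540 (S7 and S3) and 0.594 (S6 and S2). Genes are not independent, and these values are descriptions. S4 correlated with S6 at 0.616 and with S3 at 0.919, and S5 correlated with S6 at 0.702 and with S3 at 0.807. Both intermediate stages were therefore closer to late-embryogenesis than to S6 by this measure.

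A gene was called late-high when S6 and S7 both lay at least 2-fold above each of S1, S2 and S3 on log2(FPKM + 1), a scale that understates the change of genes with low values. It was called early-high when S6 and S7 both lay at least 2-fold below each of them. There were 3540 late-high genes (19.3% of the genes compared) and 4068 early-high genes (22.2%), together 7608 genes (41.6%). These shares describe all genes and are the background for the counts of late-high and early-high members below. Of the remaining genes, 4325 (23.6%) were under 2-fold apart in all 6 pairs of a late with an early stage, and 6372 (34.8%) were 2-fold apart in some pairs only. When only the mean of each phase was used, 4897 genes (26.8%) lay 2-fold above and 5708 (31.2%) 2-fold below. With only identifiers on an entry of their own there were 2585 late-high and 3466 early-high genes. The median late minus early difference over all genes was -0.10 (log2).

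The split into late-high and early-high genes moved with the scaling of the libraries. The summed FPKM was 2281178 at S6 and 2379437 at S7, against 940628 at S1, 787865 at S2 and 934142 at S3, and reached 953578 at S4 and 1292185 at S5. As deposited, 46.5% of the called genes were late-high. Scaling every stage to the same sum shifted the median difference of all genes to -1.16 and gave 1122 late-high and 7702 early-high genes (12.7% late-high). Scaling to the same upper quartile shifted it to -0.64 and gave 2127 and 5416 genes (28.2% late-high), while scaling by median ratios gave 3493 and 4097 genes (46.0% late-high, median -0.12). The part of the unequal sums in the counts was not tested.

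**Figure D1:**
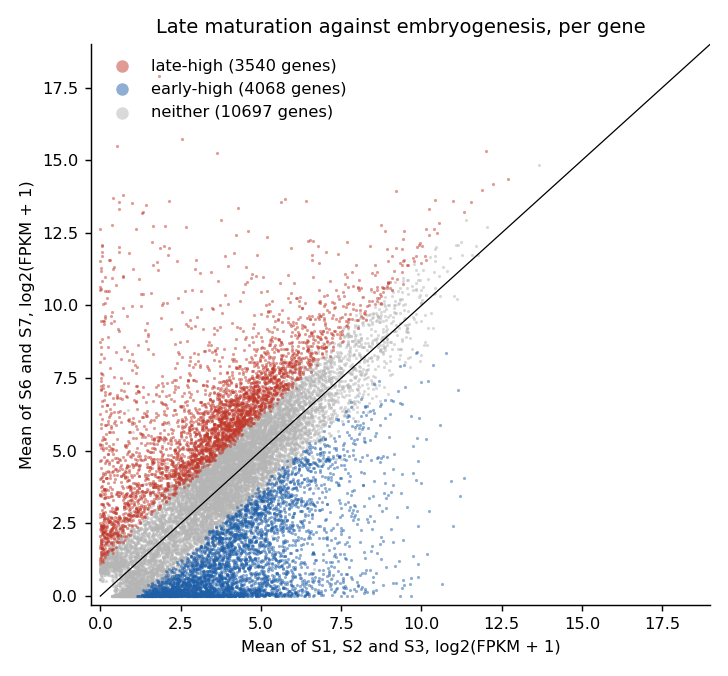
Mean log2(FPKM + 1) of S6 and S7 (vertical axis) against that of S1, S2 and S3 (horizontal axis), 1 point per gene, for the 18305 genes compared. The 3540 late-high genes lie above the diagonal of equal levels and the 4068 early-high genes below it, with many early-high genes near 0 at the late stages. The counts are for the deposited scaling and became 1122 and 7702 when every stage was scaled to the same sum.

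The levels of the called genes at the 5 stages are given as a description, since the same values chose them. Late-high genes held 69.6% of the summed FPKM at S6 and 72.1% at S7, against 18.2%, 17.8% and 16.2% at S1, S2 and S3, with 22.5% at S4 and 31.4% at S5. Their median level was 64.6 FPKM at S6 and 66.4 FPKM at S7, against 9.73 to 11.3 FPKM over S1, S2 and S3. At 1000 FPKM or more stood 238 of them at S6 and 241 at S7, against 27, 11 and 18 at S1, S2 and S3, and 29 at S4 and 65 at S5. The 10 most abundant of them alone took 20.2% of the sum at S6 and 23.8% at S7, and no more than 2.87% at an early stage.

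Early-high genes, likewise chosen by these values, held 0.945% of the summed FPKM at S6 and 0.814% at S7, against 24.4%, 26.5% and 28.6% at S1, S2 and S3. Their median level was 0.852 FPKM at S6 and 0.723 FPKM at S7, against 18.5, 16.8 and 17.3 FPKM at S1, S2 and S3. None of them reached 1000 FPKM at S6 or S7 (0 genes at each), while 22, 13 and 30 did so at S1, S2 and S3.

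The size of the separation is likewise a description of values that the rule used. On their low side, 494 late-high genes (14.0%) were under 1 FPKM at all 3 early stages and 2023 early-high genes (49.7%) at both late stages, and such genes were compared only through the phase where they were high. A level of at least 1 FPKM at all 5 stages was found for 2771 late-high genes (78.3%) and 1727 early-high genes (42.5%). The median difference was 2.20 for late-high genes (quartiles 1.72 and 3.05) and -2.64 for early-high genes (quartiles -3.65 and -1.97), values that the 2-fold rule itself keeps away from 0. Even the closest pair of stages was at least 4-fold apart for 1468 late-high genes (41.5%) and 2108 early-high genes (51.8%), and at least 16-fold apart for 346 (9.77%) and 497 (12.2%). A gap of at least 256-fold was found for 79 late-high genes (2.23%) and 10 early-high genes (0.246%). Within the phases, S6 and S7 were under 2-fold apart for 96.3% of late-high and 96.5% of early-high genes. S1, S2 and S3 were all under 2-fold apart for 87.0% of late-high and 66.8% of early-high genes. For late-high genes these stages are the low side, where differences are compressed on log2(FPKM + 1), as S6 and S7 are for early-high genes. Values under 1 FPKM cannot be 2-fold apart on this scale. The outcome was thus fixed at S6 and S7 for the 2023 early-high genes above, and at the early stages for the 494 late-high genes. No share over all genes compared stands beside these shares.

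Some of the values were listed at exactly 0, which can stand for an estimate that failed. This was the case in any of the 5 stages for 117 late-high and 572 early-high genes, and for 242 early-high genes at both S6 and S7. Without the genes listed at 0 in any of the 5 stages there were 3423 late-high and 3496 early-high genes. At the 2-fold limit, Ca_00762 was just inside as late-high with 149 and 206 FPKM at S6 and S7, against 73.8, 65.0 and 65.1 FPKM at S1, S2 and S3. Ca_11250 was just outside with 46.9 and 43.5 FPKM, against 21.2, 18.8 and 12.6 FPKM. In the other direction, Ca_22444 was just inside as early-high with 0.722 and 1.38 FPKM at S6 and S7, against 19.4, 3.76 and 6.51 FPKM at S1, S2 and S3, and Ca_02608 was just outside with 8.46 and 10.3 FPKM, against 22.7, 21.6 and 26.5 FPKM.

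S4 and S5 had no part in choosing the genes, and they were used to place the switch. For each gene the level at S4 and at S5 was expressed as a percentage of the way from its early mean (0%) to its late mean (100%) on log2(FPKM + 1), and the gene was taken as switched from 50% of the way. At S4 the median way was 6.07% for late-high genes (quartiles -6.32% and 24.4%) and 10.5% for early-high genes (quartiles -9.55% and 31.0%). At S5 it was 20.9% (quartiles -1.93% and 50.2%) and 30.1% (quartiles 2.82% and 60.4%). The typical gene of either direction had thus covered less than 50% of its way by mid-maturation.

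**Figure D2:**
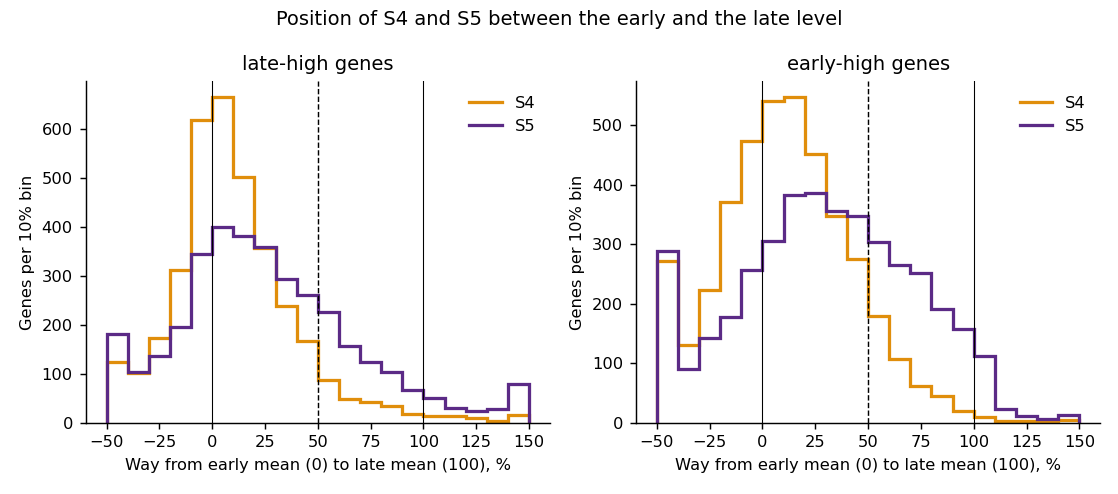
Number of genes (vertical axis, bins of 10%) by the way covered at S4 and at S5 from the early mean (0%) to the late mean (100%), for late-high genes on the left and early-high genes on the right. The outermost bins also hold genes beyond the axis, and the dashed line marks 50%. The distributions peak close to the early level at S4 and spread toward the late level at S5, with medians of 20.9% and 30.1%.

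Most genes of both directions switched late. Of the late-high genes, 2618 (74.0%) had switched at neither S4 nor S5, 636 (18.0%) had switched at S5 but not at S4, 252 (7.12%) had switched at S4 and S5, and 34 (0.96%) were past 50% at S4 only. Of the early-high genes, 2689 (66.1%) switched after S5, 942 (23.2%) by S5, 393 (9.66%) by S4, and 44 (1.08%) were past 50% at S4 only. The share that switched after S5 was the highest of the courses under each alternative for which courses were computed (other pseudocounts above 0, limits and scalings, a stage left out, and rows with repeated identifiers or values of 0 left out), between 59.9% and 84.0% for late-high and between 50.3% and 78.5% for early-high genes. Whether it was higher for late-high or for early-high genes depended on the scaling, since scaling to the same upper quartile gave 67.9% and 68.7%.

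The distance of S4 and S5 from all stages of a phase gave a similar order. S5 was still at least 2-fold short of both late stages for 2600 late-high genes (73.4%) and 2859 early-high genes (70.3%). It was already at least 2-fold past all 3 early stages for 811 late-high genes (22.9%) and 1243 early-high genes (30.6%). At S4 the genes past all 3 early stages numbered 290 (8.19%) and 341 (8.38%). Some genes left the range of the 5 stages in between. S4 or S5 was at least 2-fold above all 5 stages for 63 of 3540 late-high and 199 of 4068 early-high genes. For 55 late-high and 9 early-high genes S4 or S5 was at least 2-fold below all of them.

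**Figure D3:**
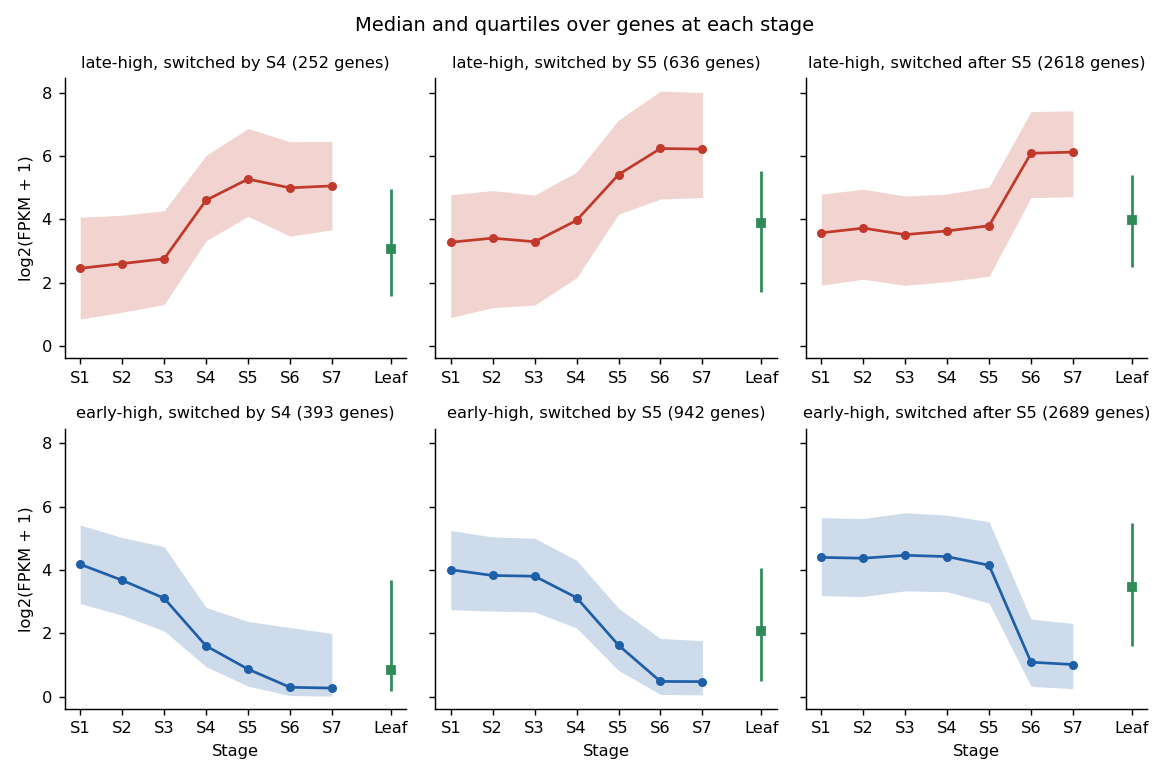
Median (line) and quartiles (band) of log2(FPKM + 1) over genes at each seed stage, with leaf at the right (square and bar), for late-high genes in the upper row and early-high genes in the lower row, split by course. The medians of genes that switched after S5 stay close to the early level through S5 and change between S5 and S6, whereas those of genes that switched by S4 or by S5 move earlier. Courses were assigned from the S4 and S5 values, so the levels there follow in part from the grouping.

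The levels of each course at S4 and S5 are given as a description, since the values at these stages assigned the courses. Among late-high genes that switched by S4, the median level over the stages S1 to S7 was 4.48, 5.07, 5.74, 23.3, 37.6, 30.9 and 32.3 FPKM, so that S5 was the highest point. Rows that joined several identifiers or repeated an identifier made up 52.4% of these genes, against 24.4% of late-high genes that switched by S5 and 25.1% of those that switched after S5, and the number of genes that switched by S4 was 120 when only identifiers on a row of their own were kept, a restriction chosen after the data had been seen. The genes named for a course were taken among identifiers on a row of their own with values above 0 at all 7 seed stages. Ca_08825 showed the widest separation among these. It had 2468 and 1764 FPKM at S6 and S7, against 0.511, 0.156 and 1.41 FPKM at S1, S2 and S3 (difference 10.34), with 69.8 FPKM at S4 and 2039 FPKM at S5. Ca_11368 was highest in mid-maturation, with 1122 and 951 FPKM at S6 and S7, against 0.442, 2.04 and 11.2 FPKM at S1, S2 and S3, and with 98.1 FPKM at S4 and 2797 FPKM at S5. The most abundant gene of the group, Ca_09333, was already high early, with 12021 and 12691.5 FPKM at S6 and S7, against 2190.2, 1481 and 2468 FPKM at S1, S2 and S3 (difference 2.63).

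Late-high genes that switched by S5 had a median level of 8.70, 9.60, 8.80, 14.6, 41.6, 74.5 and 73.5 FPKM over S1 to S7, and 16.2% of them had even their closest stages at least 16-fold apart, against 4.76% of those that switched by S4 and 8.63% of those that switched after S5. Ca_12606 had 15648 and 11374 FPKM at S6 and S7, against 0.465, 0.277 and 0.197 FPKM at S1, S2 and S3 (difference 13.32), with 5.39 FPKM at S4 and 2843 FPKM at S5. It had covered 83.3% of its way by S5. Ca_12063 reached 10609 and 13966 FPKM at S6 and S7, against 0.0181, 0.808 and 0.874 FPKM at S1, S2 and S3 (difference 12.98), with 10.2 FPKM at S4 and 472 FPKM at S5. The most abundant gene, Ca_16345, stood at 14459 and 17576 FPKM at S6 and S7, against 5595, 2263 and 4393 FPKM at S1, S2 and S3. It missed the earlier group by little, with 49.6% of the way at S4.

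The late-high genes that switched after S5 kept a median level between 10.4 and 12.9 FPKM from S1 to S5 and then stood at 67.0 FPKM at S6 and 68.7 FPKM at S7. Ca_06877 had both the widest separation and the highest level, with 215672 and 271919 FPKM at S6 and S7, against 3.49, 6.19 and 0.389 FPKM at S1, S2 and S3 (difference 16.06). Its level was 10.6 FPKM at S4 and 92.2 FPKM at S5, 29.4% of the way. Ca_09330 had 13603 and 15240.3 FPKM at S6 and S7, against 0.439, 1.55 and 0.155 FPKM at S1, S2 and S3, with 0.764 FPKM at S4 and 23.2 FPKM at S5. Of the 21 late-high genes listed at 0 at all 3 early stages, Ca_18854 was the most abundant, with 6670.2 and 6156 FPKM at S6 and S7 and 10.04 FPKM at S5.

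Early-high genes that switched by S4 declined in median level at each stage, with 17.1, 11.8, 7.62, 2.04, 0.825, 0.227 and 0.205 FPKM over S1 to S7. The size of this group depended on S3. Without S3, a setting added after the data had been seen, 611 in place of 393 genes switched by S4. Ca_26260 had 0.199 and 0.0340 FPKM at S6 and S7, against 331, 305 and 306 FPKM at S1, S2 and S3 (difference -8.14), with 14.3 FPKM at S4 and 5.96 FPKM at S5. Ca_16243 was close to the 50% limit at S4 (50.4% of the way) and had 0.171 and 0.181 FPKM at S6 and S7, against 248, 159 and 107 FPKM at S1, S2 and S3. The most abundant gene of the group, Ca_17324, differed within the early phase itself, with 27.3 and 6.14 FPKM at S6 and S7, against 972, 1198 and 142 FPKM at S1, S2 and S3.

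Those that switched by S5 had a median of 15.1 FPKM at S1, 13.2 FPKM at S2, 7.73 FPKM at S4, 2.08 FPKM at S5, 0.393 FPKM at S6 and 0.389 FPKM at S7. Ca_04872 had both the widest separation and the highest level among those eligible to be named. It had 0.402 and 0.290 FPKM at S6 and S7, against 830.4, 1051 and 596 FPKM at S1, S2 and S3 (difference -9.23), with 150.01 FPKM at S4 and 19.2 FPKM at S5. Ca_13637 had 0.0964 and 0.338 FPKM at S6 and S7, against 1111, 523 and 507 FPKM at S1, S2 and S3, with 242 FPKM at S4 and 18.2 FPKM at S5.

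The early-high genes that switched after S5 kept a median level between 16.7 and 21.1 FPKM from S1 to S5 and stood at 1.12 FPKM at S6 and 1.02 FPKM at S7. Ca_01497 had 0.664 and 0.279 FPKM at S6 and S7, against 693, 557 and 844 FPKM at S1, S2 and S3 (difference -8.88), and it was at 265 FPKM at S4 and 88.5 FPKM at S5. Ca_13225 had 0.699 and 0.474 FPKM at S6 and S7, against 1876, 558 and 814 FPKM at S1, S2 and S3. Neither gene was at its early level at S5, where both had covered about as much of the way (33.1% and 34.8%). The most abundant one, Ca_09192, remained well expressed, with 225 and 82.5 FPKM at S6 and S7, against 2650.45, 1944 and 2275 FPKM at S1, S2 and S3. Ca_15856 had the highest mean over the early stages among the genes listed at 0 at both S6 and S7, with 424, 429 and 3054 FPKM at S1, S2 and S3, 3166 FPKM at S4 and 615 FPKM at S5.

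Leaf, which was not used to choose the genes either, was nearer to young seeds for most late-high genes and was divided for early-high genes. The leaf level was nearer to the late mean for 847 late-high genes (23.9%) and nearer to the early mean for 2693 (76.1%). It lay at least 2-fold below both S6 and S7 for 2628 late-high genes (74.2%), and the share nearer to the late mean was 23.4%, 23.9% and 24.1% for those that switched by S4, by S5 and after S5. Of the early-high genes, 1972 (48.5%) had a leaf level nearer to the late mean and 2096 (51.5%) nearer to the early mean. Here the courses differed in leaf, with 71.0% nearer to the late mean among genes that switched by S4, 58.4% among those by S5 and 41.5% among those after S5. Leaf was at least 2-fold above all 5 stages for 578 early-high genes, and early-high genes held 29.1% of the summed FPKM of leaf. Ca_22444, with 1383 FPKM in leaf, was one of these. No share over all genes compared stands beside the leaf counts, and other scalings were not tried for them. Late-high genes were chosen for high values at S6 and S7, so a lower level in leaf can follow from that choice.

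Lists of genes by function came from the study, and of these the genes with a listed differentially methylated region were counted. They were chosen for methylation in seeds of the study. For cell growth and QTLs the methylation was compared between cultivars, and for the other lists between successive stages. No share over all genes with such a region stands beside the list shares. Members listed only for differential expression were left out, because that choice used expression in these samples. The lists share members, such as 58 genes of the cell growth list (45.7%) that are also in the differentiation list (18.1% of that list). Genes for the cell cycle were seldom late-high. Of 140 compared, 11 (7.86%) were late-high and 49 (35.0%) early-high, beside 19.3% and 22.2% of all genes, and their median difference was -0.79, beside -0.10 over all genes. Cell growth genes had 19 of 127 late-high (15.0%) and 43 early-high (33.9%), with a median of -0.94. The differentiation list had 54 of 321 late-high (16.8%) and 83 early-high (25.9%), with a median of -0.35. The medians of these 3 lists lay below that of all genes under each scaling tried.

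Among the lists tied to maturation, the grain filling list was on the early side. It had 11 of 70 genes late-high (15.7%) and 25 early-high (35.7%), with a median difference of -0.82, below that of all genes under each scaling. The desiccation list had 16 of 67 genes late-high (23.9%) and as many early-high (23.9%). Its median was 0.43 as deposited, 0.41 with the median ratio, -0.17 after upper-quartile scaling and -0.83 after scaling to equal sums, and it exceeded that of all genes by 0.53, 0.53, 0.48 and 0.33 in the same order. Genes within quantitative trait loci (QTLs) for seed size or weight were close to all genes, with 138 of 749 late-high (18.4%), 162 early-high (21.6%) and a median of -0.03.

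**Figure D4:**
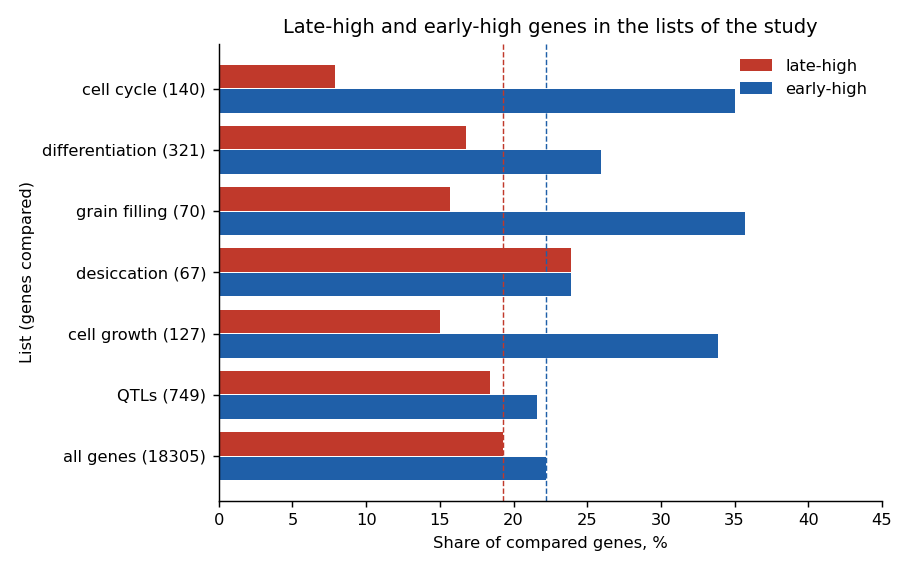
Share of compared genes (horizontal axis, %) that were late-high (upper bar of each pair) and early-high (lower bar) in each gene list, with the number of genes compared in parentheses, for the deposited scaling. Dashed lines mark the shares over all genes, 19.3% and 22.2%. The cell cycle list has the lowest late-high share (7.86%) and the desiccation list the highest (23.9%). The late-high shares dropped to 0.704% and 14.3% when every stage was scaled to the same sum. Of all 18561 genes compared under that scaling, 1122 were late-high.

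The courses within the lists were mixed, and most counts are too small to set against those of all genes. Of the early-high cell cycle genes, 11 switched by S4, 16 by S5 and 22 after S5. Switched by S4 were 0 of 25 early-high grain filling genes and 0 of 16 early-high desiccation genes, beside 9.66% of all early-high genes. With all listed members included these counts were 5 of 61 and 3 of 34, but the members added were chosen on expression in these samples. Of the late-high members, 0 switched by S4 in the cell cycle, desiccation and cell growth lists, 1 in the grain filling list, 4 in the differentiation list and 7 in the QTL list, beside 7.12% of all late-high genes. With all listed members the counts were 1 for cell cycle and 2 for desiccation. The late-high gene with the widest separation in the desiccation list was Ca_04763. It had 6559 and 7079.7 FPKM at S6 and S7, against 1.06, 4.46 and 4.70 FPKM at S1, S2 and S3 (difference 10.73), with 342 FPKM at S5. In the grain filling list this was Ca_07751, with 3058 and 1349.5 FPKM at S6 and S7, against 0.0535, 0.211 and 0.0266 FPKM at S1, S2 and S3. Ca_07751 was listed at 0 at S5, between 13.04 FPKM at S4 and the high value at S6. In the differentiation list, Ca_00317 reached 3720.1 and 4835 FPKM at S6 and S7, against 0.525, 3.60 and 7.54 FPKM at S1, S2 and S3.

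The late-high cell cycle gene with the widest separation, Ca_07489, had 289 and 256 FPKM at S6 and S7, against 5.71, 5.86 and 6.38 FPKM at S1, S2 and S3, and it was at 53.3 FPKM at S5. In the cell growth list the widest gap was that of the row joining Ca_05706 and Ca_05707, with 3475 and 1729 FPKM at S6 and S7, against 6.70, 7.61 and 6.14 FPKM at S1, S2 and S3. Reads of these identifiers on the joined row cannot be told apart. In the QTL list, Ca_04570 had 3171 and 2942 FPKM at S6 and S7, against 0.137, 0.445 and 0.0883 FPKM at S1, S2 and S3, and was higher still at S5 (4944 FPKM).

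On the early-high side the widest separation in each list belonged to genes that switched after S5. The cell cycle gene Ca_12649 had 0.347 and 0.0105 FPKM at S6 and S7, against 75.5, 89.9 and 193 FPKM at S1, S2 and S3, and it still stood at 135 FPKM at S5. The desiccation gene Ca_20276 had 1.31 and 0.163 FPKM at S6 and S7, against 142, 107 and 178 FPKM at S1, S2 and S3, with 145 FPKM at S5. Both were thus within their early range at S5. The grain filling gene Ca_08273 had 0.137 and 0.0573 FPKM at S6 and S7, against 143, 112 and 225 FPKM at S1, S2 and S3, and stood far higher in leaf (2549 FPKM). The differentiation gene Ca_11363 had 0.466 and 0.0911 FPKM at S6 and S7, against 192, 168 and 231 FPKM at S1, S2 and S3. The cell growth gene Ca_10525 had 0.210 and 0.0987 FPKM, against 123, 63.5 and 49.9 FPKM. Ca_15856, given above, held this place in the QTL list.

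Of 13 candidate genes for seed size and weight, those that the text of the study gives by name out of a longer list, 1 was late-high, 6 were early-high and 6 neither. The other candidates of that list were not analysed here. The study chose its candidates on methylation and expression that included S3 and S5 of this cultivar, so they are not an independent sample of genes. Among them are genes of DNA replication. CDC6 helps to load the minichromosome maintenance (MCM) helicase onto replication origins, and the helicase unwinds DNA during replication. CDC6 (Ca_15618) had 0.0397 and 0.0834 FPKM at S6 and S7, against 9.54, 3.67 and 3.52 FPKM at S1, S2 and S3, with 2.21 FPKM at S4 and 1.72 FPKM at S5. The MCM gene Ca_09549 had 3.77 and 3.07 FPKM at S6 and S7, against 63.9, 24.7 and 25.5 FPKM at S1, S2 and S3, and Ca_15408 had 0.781 and 0.549 FPKM, against 45.4, 18.2 and 18.4 FPKM. All 3 were highest at S1 and lower at each stage from S3 on up to S6. Ca_09549 had switched by S4 (56.7% of the way) and Ca_15408 by S5 (56.2%), while CDC6 was at 45.9% at S5. A further MCM gene, Ca_12014, was neither, with 0.513 and 0.896 FPKM at S6 and S7, against 3.90, 2.27 and 2.70 FPKM at S1, S2 and S3, and had its highest level at S5 (4.74 FPKM). It became early-high when scaled to the same sum or the same upper quartile.

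Auxin genes went both ways. Auxin response factors are transcription factors that act on auxin-responsive promoters, and GH3 enzymes join auxin or other hormones to amino acids. The auxin response factor Ca_10748 was early-high, with 0.509 and 0.884 FPKM at S6 and S7, against 118, 81.9 and 76.2 FPKM at S1, S2 and S3 (difference -5.76), and with 39.1 FPKM at S4 and 15.7 FPKM at S5. The GH3 gene Ca_23631 was early-high and peaked at S2, with 1.29 and 1.86 FPKM at S6 and S7, against 30.1, 69.9 and 33.5 FPKM at S1, S2 and S3. It had covered 96.0% of its way by S5. The other GH3 gene, Ca_06937, was the late-high candidate, with 47.7 and 49.3 FPKM at S6 and S7, against 0.00942, 0.618 and 3.27 FPKM at S1, S2 and S3 (difference 4.70), and had switched by S5 at 24.2 FPKM. The GH3 genes thus had opposite courses over the same stages.

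Of the other candidates, the C3HC4-type zinc finger gene Ca_09815, of a class often found in ubiquitin ligases, was early-high with 0.108 and 0.151 FPKM at S6 and S7, against 25.6, 9.97 and 11.2 FPKM at S1, S2 and S3. It switched after S5, where it stood at 9.15 FPKM. The remaining 5 were neither. The type-B response regulator Ca_14780, of a family that transmits cytokinin signals, differed by 0.07, the homeobox gene Ca_04491 by -0.07, the Dof zinc finger gene Ca_09238 by -0.63 and the RNA recognition motif gene Ca_09981 by 0.81. With every stage scaled to the same sum these differences were -1.08, -1.35, -1.77 and -0.46 in the same order, and Ca_09238 became early-high. The F-box gene Ca_01760, of a class that selects proteins for ubiquitination, was on 2 rows that differed by -0.13 and 0.42. Its main row was lowest in between, at 21.6 FPKM at S4 and 10.7 FPKM at S5, against 54.7 and 52.1 FPKM at S6 and S7 and 39.5, 62.4 and 81.6 FPKM at S1, S2 and S3.

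DNA methyltransferases split by family. In Arabidopsis, MET1 maintains CG methylation, chromomethylases (CMT) methylate CHG and CHH sites, and DRM enzymes act in RNA-directed methylation. As deposited, CaMET1, CaCMT1, CaCMT2 and CaCMT3 were early-high and CaDRM1 and CaDRM2 were neither (4 and 2 of 6 genes). CaMET1 (Ca_18432) had 0.309 and 0.571 FPKM at S6 and S7, against 11.8, 5.98 and 6.01 FPKM at S1, S2 and S3. CaCMT2 (Ca_17866) had 0.0653 and 0.0484 FPKM, against 23.4, 8.56 and 7.32 FPKM, and CaCMT3 (Ca_23587) had 0.0126 and 0.0554 FPKM, against 41.6, 13.9 and 13.5 FPKM. These 3 genes were highest at S1 and had switched by S4 (CaCMT2, 54.3% of the way) or by S5 (CaMET1 63.2%, CaCMT3 68.8%).

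CaCMT1 (Ca_20580) took another course, with 0.833 and 1.03 FPKM at S6 and S7, against 23.2, 14.8 and 19.5 FPKM at S1, S2 and S3, and it still stood at 21.1 FPKM at S4 and 18.9 FPKM at S5. A second row of this identifier stayed under 1 FPKM at the 5 stages. CaDRM1 (Ca_12577) had 11.2 and 13.5 FPKM at S6 and S7, against 14.4, 11.4 and 11.7 FPKM at S1, S2 and S3 (difference -0.01). CaDRM2 (Ca_03062) had 21.5 and 25.3 FPKM, against 24.0, 22.7 and 19.96 FPKM (difference 0.07). The ranges of the DRM genes overlapped between the phases. Scaled to the same sum, the differences were -1.30 for CaDRM1, which became early-high, and -1.26 for CaDRM2, close to the shift of all genes (-1.16).

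**Figure D5:**
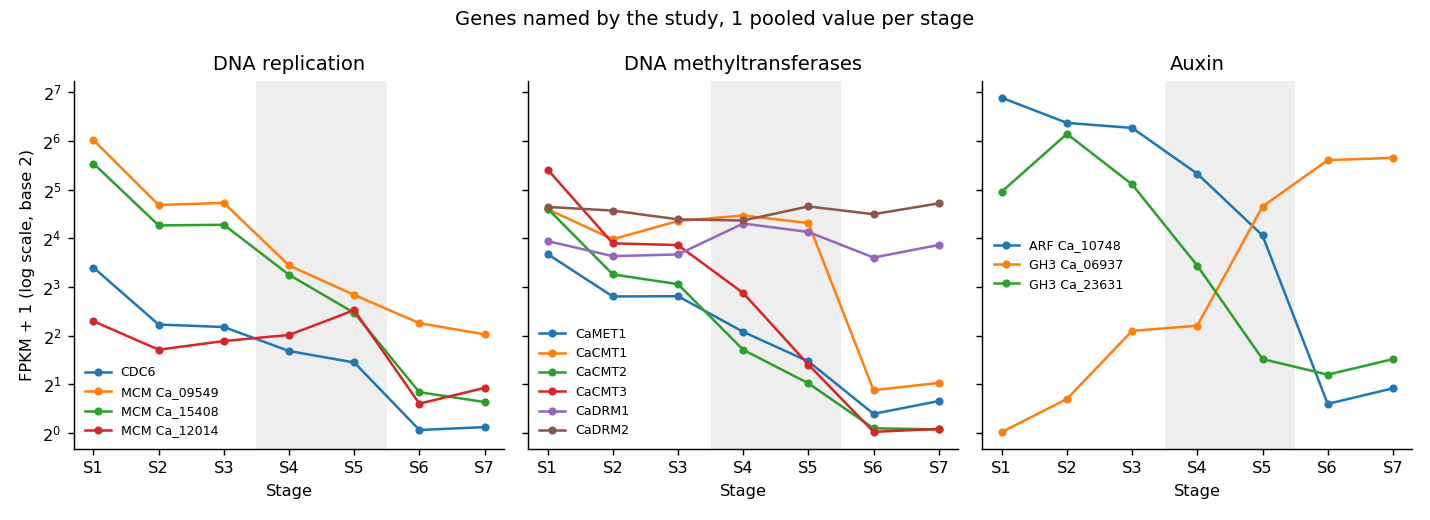
FPKM + 1 on a log scale of base 2 (vertical axis) at each seed stage for DNA replication, DNA methyltransferase and auxin genes, 1 pooled value per point, with S4 and S5 shaded. CaMET1, CaCMT2 and CaCMT3 are highest at S1 and lowest at S6 or S7, CaCMT1 keeps its level until S5 and is at 0.833 FPKM at S6, and the GH3 genes cross between S4 and S5.

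DNA demethylases are glycosylases that remove methylated cytosine from DNA. Of the 6 demethylase genes, 1 was late-high, 4 were neither and 1 (Ca_07031) was under 1 FPKM at the 5 stages. The late-high gene, Ca_17326, had 7.29 and 4.11 FPKM at S6 and S7, against 0.584, 0.382 and 0.334 FPKM at S1, S2 and S3 (difference 2.19), and was switched by S5 at 4.96 FPKM. It was no longer late-high when scaled to the same sum. Ca_17329 missed the rule, with 3.93 and 2.13 FPKM at S6 and S7, against 0.973, 0.250 and 0.330 FPKM at S1, S2 and S3, and was highest at S5 (5.44 FPKM). Ca_17547 was the most abundant at S1, S2 and S3, with 18.9 and 17.6 FPKM at S6 and S7, against 21.4, 19.9 and 22.4 FPKM at S1, S2 and S3, and higher in between (43.8 FPKM at S4 and 49.0 FPKM at S5), and it became early-high when scaled to the same sum. Ca_20137 stood on 2 rows that disagreed. The more abundant had 17.3 and 12.0 FPKM at S6 and S7, against 14.3, 16.3 and 16.3 FPKM at S1, S2 and S3, whereas the other was late-high with 32.0 and 33.9 FPKM, against 1.99, 0.981 and 0.810 FPKM, and it is uncertain which row stands for the gene. Both rows of Ca_08414 were neither, with differences of -0.08 and 0.91.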

How the data were processed

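Groups were taken from the sample titles. According to the series' design text, low-quality reads were removed by the authors (NGS QC Toolkit), TopHat aligned the rest to the kabuli chickpea genome and Cufflinks gave FPKM. The deposited FPKM values came as 1 column for the 3 samples of each group. How they were pooled and scaled is not given in the sources used here, and depth is unknown. The limma test intended for replicate columns could not be run, so no test is given.

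Columns were joined by row (28269 identifiers, of which 0 matched the RefSeq name table). Lists were read from the study as identifiers, keeping for a repeated identifier the row with the highest mean. Named genes were, per direction and course, among rows with 1 unique identifier and no 0, the 2 with the widest gap between phases and the most abundant one, plus the most abundant gene at 0 on the low side, the widest gap per list and direction, the genes at the limit and the 13 candidates that the text of the study names (the rest of its list was not used), 6 methyltransferases and 6 demethylases. The members and lists were chosen with earlier results of these data known. Alternatives were pseudocounts of 0.1 and 5 or none, a minimum of 5 FPKM or none, a 4-fold limit, phase means, 3 scalings, all listed members and each stage left out. The calculation was tested on simulated data with abrupt steps, little noise and well-expressed genes only. Low values and gradual courses were not tested there. Python 3.11.15, pandas 2.3.3 and NumPy 2.4.6 were used.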

Additional observations from a re-analysis of the deposited data

Results flagged for a closer look

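The comparison did not use rows named only by a locus number from transcript assembly, without a gene identifier. Of these rows, 3356 of 7268 reached 1 FPKM in at least 1 of the 5 stages. Among these, 772 were late-high (23.0%) and 400 early-high (11.9%), beside 19.3% and 22.2% of the identified genes. They are set apart here because they lie outside the comparison, and their shares are for the deposited scaling only. Of the 772 late-high rows 610 (79.0%) switched after S5, beside 74.0% of the late-high identified genes. Of the 400 early-high rows 167 (41.8%) did so, beside 66.1% of the early-high identified genes. Another 154 of these early-high rows switched by S4, beside 9.66% of the early-high identified genes. All such rows together held 2.99% and 3.04% of the summed FPKM at S6 and S7, against 3.44%, 4.02% and 4.52% at S1, S2 and S3.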

How the results depend on the processing

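No paired analysis was possible because the columns pool the 3 samples of a group and carry no replicate number, and replicates could not be left out for the same reason. Depth is unknown, so low values have no known precision. Of 34 alternative counts of late-high and early-high genes 6 moved by over 1.5 times, as did 25 of 90 course counts. Dropping the minimum could not change the counts of late-high and early-high genes. A gene 2-fold apart on log2(FPKM + 1) has at least 1 FPKM on its high side. The cause of each move was not tested, except that a stricter limit admits fewer genes by construction. Courses are given in the order by S4, by S5 and after S5. A pseudocount of 5 gave 2451 early-high genes (courses 260, 616 and 1542) and 138 late-high genes switched by S4. A 4-fold limit gave 1468 late-high (76, 261 and 1121) and 2108 early-high genes (141, 481 and 1477). Scaling to the same sum gave 1122 late-high (125, 206 and 764) and 7702 early-high genes (677, 2256 and 4702), and scaling to the same upper quartile gave 2127 late-high genes with 421 by S5 and 1445 after S5. Counting a gene as switched from 66.7% of the way gave 145 late-high genes by S4 and 402 by S5, and 158 early-high genes by S4. From 33.3% of the way, 520 late-high and 810 early-high genes switched by S4. Chosen after the data had been seen, leaving out S3 gave 611 early-high genes switched by S4, and keeping identifiers on a row of their own gave 120 late-high genes switched by S4.

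A list share was counted as moved when it left the Wilson 95% interval of the deposited value, which covers counting over genes only, so that small lists moved less readily. Scaling to the same sum moved 10 list shares. The counts over all genes moved too, to 1122 late-high and 7702 early-high of 18561 compared. The late-high share became 0.704% for cell cycle, 5.21% for differentiation, 14.3% for desiccation, 3.94% for cell growth and 5.28% for QTLs, and the early-high share became 61.3% for cell cycle, 45.1% for differentiation, 62.9% for grain filling, 54.3% for cell growth and 42.9% for QTLs. Scaling to the same upper quartile moved 8, with late-high and early-high shares of 3.52% and 44.4% for cell cycle, 8.98% and 33.1% for differentiation, 8.66% and 45.7% for cell growth and 11.7% and 30.6% for QTLs. Over all genes that scaling gave 2127 late-high and 5416 early-high of 18355 compared. Counting all listed members moved none of the 12 shares beyond the limit used. The members added there were chosen on expression in these samples, so this is no independent check. Among the named genes called late-high or early-high, the difference of Ca_00762, at the edge of the 2-fold limit, changed sign (-0.03 with the same sum). Sign changes of genes called neither were not counted. With the same sum they included Ca_09981 (0.81 to -0.46), Ca_14780 (0.07 to -1.08) and CaDRM2 (0.07 to -1.26). Of the other values of all named genes, 92 moved by 1 or more (log2), with pseudocounts of 0.1 or 5 or scaling to the same sum.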

Other observations

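Between late maturation and embryogenesis, 4325 genes were under 2-fold apart on log2(FPKM + 1) in all 6 pairs of stages. They were not all level in between. At S5, 203 of them lay at least 2-fold above all 5 stages and 152 at least 2-fold below, and at S4 the numbers were 86 and 52. Such values were not particular to these genes. S5 was also at least 2-fold above all 5 stages for 63 of 3540 late-high and 147 of 4068 early-high genes, and below for 50 and 5. No share over all genes compared stands beside these counts. The examples here were chosen after their values were seen. Ca_16429 stood at 122 FPKM at S5, with 1.78 and 0.264 FPKM at S6 and S7, against 0.606, 0.526 and 0.776 FPKM at S1, S2 and S3. Its values outside S5 are low, and without the added 1 some late and early ones are over 2-fold apart. Ca_08665 stood at 206 FPKM at S5, with 3.82 and 2.65 FPKM at S6 and S7, against 3.48, 3.18 and 2.76 FPKM at S1, S2 and S3. In the other direction, Ca_21024 was at 27.3 FPKM at S4 and 9.46 FPKM at S5, with 157 and 117 FPKM at S6 and S7, against 222, 156 and 157 FPKM at S1, S2 and S3. Ca_00471 was at 7.97 FPKM at S5, with 84.8 and 78.7 FPKM at S6 and S7, against 121, 88.0 and 77.8 FPKM at S1, S2 and S3. By 1 pooled value at S5, these 4325 genes thus include some with a change at mid-maturation that a comparison of the phases alone does not show.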
